A study of Mus musculus with 23 samples.

Results

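The 9 genes *Tef*, *Hlf*, *Nfil3*, *Nr1d2*, *Cry2*, *Bhlhe40*, *Bhlhe41*, *Usp2*, and *Wee1* carry the output of the circadian clock into transcription, protein turnover, and the cell cycle. They were chosen by symbol, with earlier results of these data known, as the lines of the expression table that bear these names, and they are 9 of its 48897 lines. In the coordinates of the table (mm10), they lie at chr15:81802673-81826863 (*Tef*), chr11:90336535-90390917 (*Hlf*), chr13:52967209-52982789 (*Nfil3*), chr14:18204056-18239106 (*Nr1d2*), chr2:92403646-92434214 (*Cry2*), chr6:108660629-108666925 (*Bhlhe40*), chr6:145858243-145865420 (*Bhlhe41*), chr9:44067021-44095627 (*Usp2*), and chr7:110121982-110143299 (*Wee1*). Each was found on 1 line, and all 9 passed the low-count filter in every comparison. The table covers 23 libraries of poly(A) RNA from male BALB/c mice that were 4 to 6 weeks old when the experiment began. In 9 of the mice, CT26 cells, a single transplantable line of mouse colon carcinoma, had been placed in the wall of the cecum, and 3 weeks later each gave its liver (pre-metastatic liver) and the tumor at the injection site (primary tumor), so that both tissues of a mouse carry its number. The other 5 mice had the sham operation with serum-free medium and gave a control liver. A primary tumor in a host with intact immunity holds host stroma and leukocytes beside the CT26 cells.

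The clock is a loop in which CLOCK and BMAL1 (the product of *Arntl*) bind E-boxes and drive the genes of their own repressors, the period and cryptochrome proteins, while REV-ERB and ROR proteins compete over *Arntl* itself. Output factors pass this rhythm on. TEF, HLF, and DBP, the PAR bZIP factors, activate genes through D-boxes, and NFIL3 represses through the same sites. In liver this arm is known for setting the daily course of detoxifying and metabolic enzymes.

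Total counts were 51064615 to 60393702 in control liver, 44587556 to 79773163 in pre-metastatic liver, and 47005276 to 70884436 in the primary tumor. The levels below are RPKM, the count scaled by the length of the gene and by the total of the library, and they may be compared between genes. The hour of collection is not in the labels. The livers were divided into sets by 6 clock genes that are not among the 9. A clock index was set from standardized log2(RPKM + 1), as the mean of *Dbp*, *Per3*, and *Ciart* less the mean of *Clock*, *Npas2*, and *Arntl*. It was -2.35 to -0.102 in 9 livers (4 control, 5 pre-metastatic; here the low set) and 0.981 to 2.92 in 5 livers (control C7 and pre-metastatic M1, M2, M10, and M12; here the high set). The sets are groups of libraries drawn from the data and not conditions of the study. They were made by a cut at an index of 0, which need not be a natural border. C7 (0.981) lay between M7 (-0.102), the highest of the low set, and M12 (2.05), the next of the high set. The 6 hepatocyte markers summed to 28259 to 63805 RPKM in the 14 livers and to 5.72 to 251 RPKM in the tumors, and the 5 epithelial markers to 3.88 to 14.5 RPKM in the tumors, below every liver (193 to 326 RPKM). The 9 leukocyte markers summed to 35.03 to 67.5 RPKM in control liver, 82.6 to 336 RPKM in pre-metastatic liver, and 1157 to 2937 RPKM in the tumors. In whole tissue, fewer cells of a type and less RNA per cell cannot be told apart.

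Promoter sequences, from 250 bases before to 50 bases after a gene's start, were found for 7 of the 9 genes in RefSeq (GRCm38.p6), not for *Bhlhe40* or *Wee1*. That of *Usp2* lies 17899 bases downstream of the start in the expression table, and that of *Nfil3* is set on a start at chr13:52981039, also downstream. *Tef* has a pair of promoters there, 1 at the start that the expression table gives and 1 that lies 8741 bases downstream. Both strands were searched for the E-box CACGTG, its variant CACGTT, the D-boxes TTATGTAA and TTACGTAA, and the ROR/REV-ERB element. The E-box was in both promoters of *Tef* and in that of *Bhlhe41*, and in 7.15% of all 32851 promoters. The variant was in the promoter of *Cry2*, and in 4.68% of all promoters. Neither D-box (1.06% of all promoters) nor the ROR/REV-ERB element (0.384%) was in a promoter of the 9 genes, which says only that these letters are not in these windows. Below, *Tef* and *Cry2* separate the livers by the clock index and *Bhlhe41* separates tumor from liver. Without a match, *Nr1d2* and *Usp2* separate the livers as well, and *Hlf* separates tumor from liver. A relation of match and level was not tested. The 4 promoters with a match are shown, with the matched letters in capitals. They lie at chr15:81802423-81802722 (*Tef*, first promoter, plus strand, match 127 bases upstream of the start), chr15:81811164-81811463 (*Tef*, second promoter, plus strand, 138 bases upstream), chr2:92434020-92434319 (*Cry2*, minus strand, 166 bases upstream), and chr6:145865371-145865670 (*Bhlhe41*, minus strand, 153 bases upstream).
Tef first promoter: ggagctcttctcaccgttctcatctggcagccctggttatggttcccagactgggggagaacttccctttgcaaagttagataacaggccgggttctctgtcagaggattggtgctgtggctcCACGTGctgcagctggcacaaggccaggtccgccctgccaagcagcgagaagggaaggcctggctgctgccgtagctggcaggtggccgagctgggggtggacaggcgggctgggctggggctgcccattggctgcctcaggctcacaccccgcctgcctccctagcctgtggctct
Tef second promoter: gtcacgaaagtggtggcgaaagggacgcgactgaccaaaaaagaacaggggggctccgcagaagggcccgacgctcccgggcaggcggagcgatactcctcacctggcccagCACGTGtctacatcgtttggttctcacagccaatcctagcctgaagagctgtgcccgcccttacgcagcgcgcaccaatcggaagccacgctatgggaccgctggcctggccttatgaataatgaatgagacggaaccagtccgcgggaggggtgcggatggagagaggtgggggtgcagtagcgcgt
Cry2 promoter: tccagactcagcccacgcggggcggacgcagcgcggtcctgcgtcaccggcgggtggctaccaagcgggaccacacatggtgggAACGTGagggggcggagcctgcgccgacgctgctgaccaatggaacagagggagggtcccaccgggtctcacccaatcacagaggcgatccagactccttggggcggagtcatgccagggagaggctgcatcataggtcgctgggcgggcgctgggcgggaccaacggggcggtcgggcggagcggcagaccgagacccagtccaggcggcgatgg
Bhlhe41 promoter: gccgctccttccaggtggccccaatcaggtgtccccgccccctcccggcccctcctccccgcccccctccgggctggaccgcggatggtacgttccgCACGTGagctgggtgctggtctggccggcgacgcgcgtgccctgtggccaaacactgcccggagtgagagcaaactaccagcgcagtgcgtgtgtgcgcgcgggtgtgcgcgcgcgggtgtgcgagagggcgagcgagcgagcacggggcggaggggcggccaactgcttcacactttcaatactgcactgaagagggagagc

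By median RPKM, the order of the 9 genes in control liver was *Tef* (10.5), *Bhlhe40* (8.86), *Hlf* (7.96), *Nfil3* (5.14), *Cry2* (4.78), *Nr1d2* (3.66), *Usp2* (1.38), *Wee1* (0.639), and *Bhlhe41* (0.258). Neighbors in that order overlapped in their ranges over the 5 livers, except that every *Hlf* value (6.50 to 9.996) was above every *Nfil3* value (1.99 to 6.17) and every *Nr1d2* value (2.57 to 14.04) above every *Usp2* value (0.863 to 2.39). In the primary tumor the order was *Bhlhe40* (35.3), *Nr1d2* (17.0), *Wee1* (10.8), *Tef* (9.78), *Bhlhe41* (7.87), *Nfil3* (5.65), *Cry2* (3.93), *Usp2* (1.43), and *Hlf* (0.0680). There too neighbors overlapped, except that every *Bhlhe40* value (21.3 to 55.4) was above every *Nr1d2* value (6.66 to 21.2), every *Cry2* value (3.13 to 5.93) above every *Usp2* value (1.07 to 2.08), and every *Usp2* value above every *Hlf* value (0.0119 to 0.291).

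**Figure D1:**
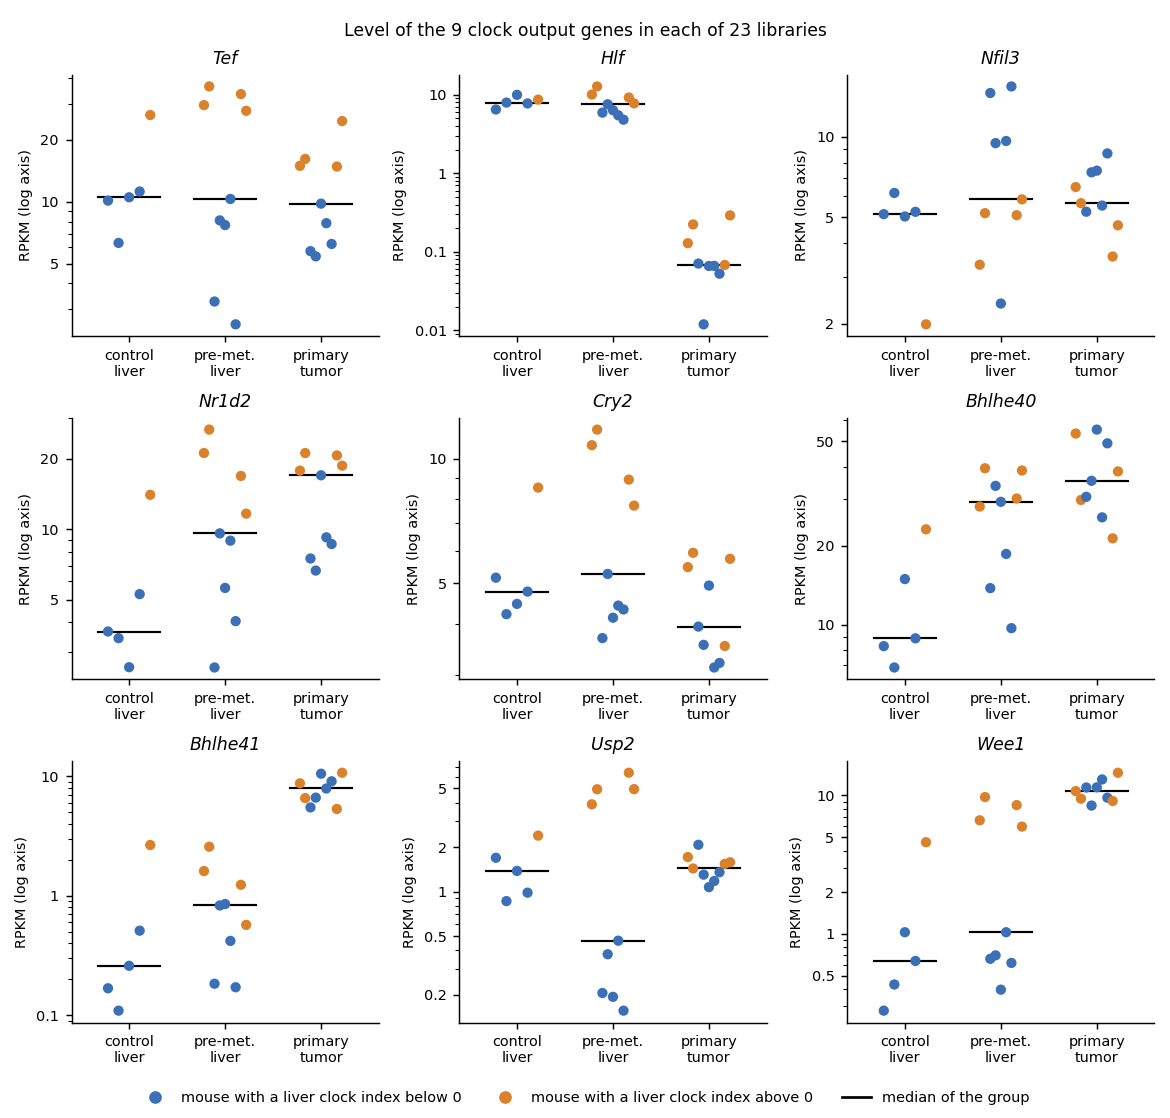
RPKM (log axis) of each of the 9 genes in each of 23 libraries, 1 panel a gene, by tissue (control liver n = 5, pre-metastatic liver n = 9, primary tumor n = 9). Points are libraries, colored by the liver clock index of the mouse, and bars are group medians. The Hlf points of the tumors lie at 0.0119 to 0.291 RPKM, below every liver, and the Bhlhe41 points at 5.31 to 10.7 RPKM, above every liver.

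Differences among livers went with the clock index. In 14 livers, 5 of the 9 genes (*Tef*, *Nr1d2*, *Cry2*, *Usp2*, and *Wee1*) were higher in every liver of the high set than in every liver of the low set, which held for 87 of 16987 genes (0.512%). The index is itself a clock readout, so these ranges are a description without a test.

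Among the PAR bZIP arm, *Tef* was at 2.53 to 11.2 RPKM in the 9 livers of the low set and at 26.4 to 36.4 RPKM in the 5 of the high set, a ratio of medians of 3.64. *Hlf*, its close relative, spread less, from 4.82 to 9.996 RPKM (low set) and from 7.77 to 12.8 RPKM (high set), with overlap. *Nfil3*, the repressor at their shared sites, was at 2.38 to 15.4 RPKM in the low set and 1.99 to 5.84 RPKM in the high set. *Nfil3* had its highest values in pre-metastatic M8 and M4 (15.4 and 14.6 RPKM), the livers with the 2 lowest *Tef* values (2.53 and 3.27 RPKM) and the 2 lowest values of the index. In M6, also of the low set, *Nfil3* was at only 2.38 RPKM with *Tef* at 7.69 RPKM.

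Among the repressors of the loop, *Nr1d2* (REV-ERB beta, which silences *Arntl*) was at 2.57 to 9.61 RPKM in the low set and 11.7 to 26.7 RPKM in the high set. *Cry2*, a cryptochrome that blocks CLOCK and BMAL1, was at 3.69 to 5.27 RPKM and 7.71 to 11.8 RPKM, so that its ratio of medians, 2.01, was the smallest of the 5 genes without overlap. *Bhlhe40* and *Bhlhe41* (DEC1 and DEC2), which compete for E-boxes, overlapped between the sets, at 6.86 to 33.8 against 23.1 to 39.4 RPKM and at 0.109 to 0.850 against 0.568 to 2.65 RPKM. Their ratios of medians were 2.20 and 6.21, and for *Bhlhe41* only M12 of the high set (0.568 RPKM) lay within the range of the low set.

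Of the enzymes, *Usp2*, a ubiquitin protease that acts on clock proteins, was at 0.156 to 1.69 RPKM in the low set and 2.39 to 6.38 RPKM in the high set, a ratio of medians of 10.6. Among pre-metastatic livers alone that ratio was 24.0, and among the control livers, where C7 is the whole high set, it was 2.03. *Wee1*, the kinase that holds CDK1 inactive before mitosis, was at 0.279 to 1.03 and 4.598 to 9.74 RPKM, a ratio of 10.4 (11.4 and 8.59 in turn). Within the 9 pre-metastatic livers, *Hlf* joined these genes (4.82 to 7.57 RPKM in 5 livers and 7.77 to 12.8 RPKM in 4), so that 6 of the 9 genes did not overlap, against 2.50% of 16987 genes.

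Spread over mice is a further measure of the same kind. On log2(RPKM + 1) weakly expressed genes spread little, so the percentiles below also depend on level. The SD of log2(RPKM + 1) in pre-metastatic liver was 1.32 for *Tef*, 1.26 for *Wee1*, and 1.19 for *Usp2*, against a median of 0.191 over 16206 genes, and the 9 genes lay between percentile 88.4 (*Hlf*) and percentile 99.6 (*Tef*). In control liver they lay between percentile 72.3 (*Hlf*) and percentile 99.2 (*Wee1*) of 14638 genes. In the primary tumor *Tef* (percentile 98.1 of 17778 genes) and *Nr1d2* (97.4) were again near the top, but *Wee1* was at percentile 73.8, *Usp2* at 51.7, and *Hlf*, which is barely expressed there, at 22.3. The tumors of the mice with livers in the high set were above those of the other mice without overlap for 2 of the 9 genes, *Tef* (14.8 to 24.7 against 5.42 to 9.78 RPKM) and *Nr1d2* (17.8 to 21.2 against 6.66 to 17.0 RPKM), and this held for 1.46% of 19749 genes.

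**Figure D2:**
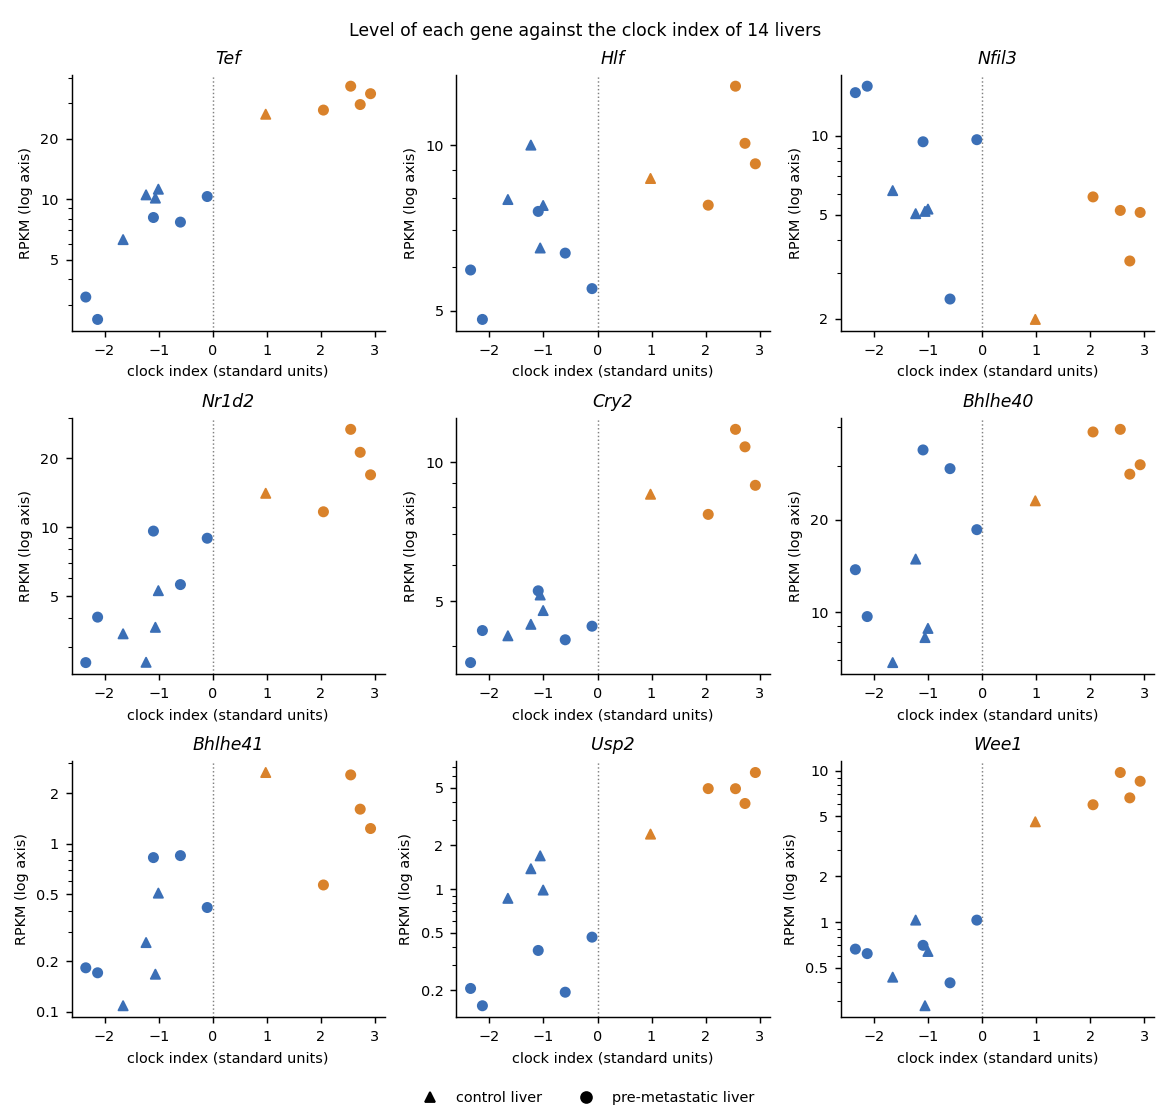
RPKM (log axis) of each of the 9 genes against the clock index (standard units) of the 14 livers, with triangles for control liver (n = 5), circles for pre-metastatic liver (n = 9), and a dotted line at 0. Right of the line, Wee1 lies at 4.598 to 9.74 RPKM and left of it at 0.279 to 1.03 RPKM, while for Nfil3 the highest values lie at the left.

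The comparison of pre-metastatic with control liver asks what a distant tumor changes in a liver before metastasis. A gene is called where the edgeR quasi-likelihood test gives a Benjamini-Hochberg adjusted p under 0.05 over all genes tested. Of the 9 genes, 1 was called, *Bhlhe40*, which was higher in pre-metastatic liver, whereas 5270 of 16987 genes were called (31.0%). For none of the 9 genes were the groups of RPKM free of overlap, as they were for 10.9% of 16987 genes.

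*Bhlhe40* was at 8.28, 6.86, 14.9, 8.86, and 23.1 RPKM in control livers C1, C4, C5, C6, and C7, and at a lowest of 9.69, a median of 29.4, and a highest of 39.4 RPKM in the pre-metastatic livers. All but 2 of the 9 pre-metastatic livers (M4 and M8) were above 4 of the control livers, and C7, the control liver of the high set, overlapped with the others. The log2 fold change was 1.22 (SE 0.35, adjusted p = 0.0162, n = 9 and 5, edgeR). Within the low set, with 5 pre-metastatic and 4 control livers, it was 1.17 (SE 0.36, adjusted p = 0.0347 by edgeR), and with the index as a covariate 0.89 (SE 0.27, adjusted p = 0.0203 by edgeR). The exact rank-sum test on RPKM gave p = 0.0190 and an adjusted p of 0.0604 over all genes. The sum of the 9 leukocyte markers was higher in every pre-metastatic liver than in every control liver, at the values given above. Single markers differed: *Cd68* had a median of 9.10 RPKM in pre-metastatic and 4.45 RPKM in control liver, and *Cd3e* 0.246 and 0.312 RPKM. The part of leukocytes in the difference was not tested.

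The other 8 genes were not called. Their log2 fold changes by edgeR ran from 0.01 (SE 0.19, *Hlf*) to 1.56 (SE 0.90, *Wee1*), with adjusted p of 0.982 and 0.203. *Nr1d2* had 1.13 (SE 0.53), *Nfil3* and *Usp2* 0.80 each (SE 0.40 and 0.87), *Tef* 0.55 (SE 0.59), *Bhlhe41* 0.44 (SE 0.73), and *Cry2* 0.40 (SE 0.29). The high set of the index holds 4 of the 9 pre-metastatic livers and 1 of the 5 control livers, C7. Without C7, 4 genes were called and all were higher in pre-metastatic liver: *Bhlhe40* (1.54, adjusted p = 0.00545), *Nr1d2* (1.73, 0.0246), *Wee1* (2.75, 0.0447), and *Bhlhe41* (1.89, 0.0478), by edgeR with 9 and 4 livers. In that fit 28.5% of 16862 genes were called.

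*Usp2* had the opposite direction within the low set. It was at 1.69, 0.863, 1.38, and 0.984 RPKM in control livers C1, C4, C5, and C6, and at 0.206, 0.377, 0.194, 0.466, and 0.156 RPKM in pre-metastatic livers M4, M5, M6, M7, and M8. In the low set, then, every pre-metastatic liver was below every control liver, while in the high set the 4 pre-metastatic livers (3.90 to 6.38 RPKM) were above C7 (2.39 RPKM). In the low set the log2 fold change was -2.08 (SE 0.35, adjusted p = 0.00261, n = 5 and 4, edgeR). There 2 of the 9 genes were called, *Usp2* and *Bhlhe40*, against 25.6% of 16158 genes.

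With the clock index as a covariate over all 14 livers, 4 of the 9 genes were called, against 30.1% of 16987 genes. In this fit, *Usp2* (log2 difference -1.69, SE 0.35, adjusted p = 0.00249) and *Tef* (-0.67, SE 0.14, adjusted p = 0.00310) were lower in pre-metastatic liver, and *Nfil3* (1.14, SE 0.30, adjusted p = 0.0104) and *Bhlhe40* were higher (edgeR). The fit gives 1 difference for all index values along a common slope, and only M5 (-1.10) lay within the index range of the low-set control livers. In the high set, *Usp2* as given above and *Tef* (27.7 to 36.4 RPKM, against 26.4 in C7) were above the control liver. *Tef* was not called in the low set alone (-0.50, SE 0.39, adjusted p = 0.377), nor was *Nfil3* (0.97, SE 0.39, adjusted p = 0.0888). The index itself reached further in pre-metastatic liver on both sides, at -2.35 to -0.102 and 2.05 to 2.92, against -1.66 to -1.01 and 0.981 in control liver, and a difference in clock phase within a set and an effect of the tumor cannot be told apart.

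The comparison of primary tumor with liver sets the 9 genes in the tumor beside the tissue of the same mouse. These tissues differ in most genes, so the scaling matters. With TMM factors, which assume that most genes do not differ, the median log2 fold change of all genes against pre-metastatic liver was 0.13, and with library totals, the scale of RPKM, it was 1.305. Against control liver these medians were 0.18 and 1.26. The share of calls that were higher in tumor was 52.5% by TMM and 76.0% by totals against pre-metastatic liver, and 53.7% and 75.7% against control liver. Log2 fold changes below are by TMM, with the direction by totals beside them where it differs.

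Against pre-metastatic liver, 8 of the 9 genes were called, 1 higher (*Bhlhe41*) and 7 lower in the tumor, where 83.3% of 19749 genes were called. Against control liver, which shares the tumors, 7 were called, 2 higher (*Bhlhe41* and *Wee1*) and 5 lower (*Tef*, *Hlf*, *Nfil3*, *Cry2*, and *Usp2*), where 82.3% of 19320 genes were called. On library totals 4 genes were called against pre-metastatic liver (*Bhlhe41* and *Wee1* higher, *Hlf* and *Cry2* lower), where 88.9% of 19749 genes were. Against control liver totals gave 5 (*Bhlhe40*, *Bhlhe41*, *Nr1d2*, and *Wee1* higher, *Hlf* lower), where 87.9% of 19320 genes were called. Ranges of RPKM did not overlap for *Hlf* and *Bhlhe41* against pre-metastatic liver (67.1% of 19749 genes) and for these and *Wee1* against control liver (73.5% of 19320 genes).

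*Hlf* was at 6.50, 7.96, 9.996, 7.76, and 8.69 RPKM in control livers C1, C4, C5, C6, and C7, at 4.82 to 12.8 RPKM (median 7.57) in pre-metastatic liver, and at 0.0119 to 0.291 RPKM (median 0.0680), or 4 to 92 counts, in the tumors. Every tumor was far below every liver. The log2 fold change was -7.32 (SE 0.43, adjusted p = 3.82e-12) against pre-metastatic and -7.30 (SE 0.44, adjusted p = 2.14e-10) against control liver (edgeR), and -6.15 and -6.22 by totals. The hepatocyte markers were lower in every tumor too, and their part in this difference was not tested.

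*Bhlhe41* went the other way. It was at 0.168, 0.109, 0.258, 0.508, and 2.65 RPKM in the control livers in the same order, at 0.171 to 2.56 RPKM (median 0.827) in pre-metastatic liver, and at 5.31 to 10.7 RPKM (median 7.87) in the tumors. All 9 tumors were above all 14 livers. The log2 fold change was 1.91 (SE 0.39, adjusted p = 0.000172) against pre-metastatic and 2.37 (SE 0.60, adjusted p = 0.00187) against control liver by edgeR, and higher in the tumor under both scalings. A gene of the opposite strand, *ENSMUSG00000108126.1*, overlaps *Bhlhe41* by 1876 bases with up to 855 counts, and since the library kit does not mark strand, their reads cannot be told apart there. Genes of the opposite strand also overlap *Cry2*, *Usp2*, and *Bhlhe40*, with at most 32, 19, and 17 counts in a library. *Bhlhe40*, its relative, was at 21.3 to 55.4 RPKM (median 35.3) in the tumors, and its direction depended on the scaling: against pre-metastatic liver it was -0.70 (SE 0.25, adjusted p = 0.0156) by TMM and 0.49 (SE 0.25, adjusted p = 0.0716) by totals, both by edgeR.

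*Cry2* was lower in the tumor (3.13 to 5.93 RPKM, median 3.93) than in pre-metastatic liver (3.69 to 11.8 RPKM, median 5.27), with overlap. Its log2 fold change was -1.81 (SE 0.24, adjusted p = 6.50e-07) by TMM and -0.63 (SE 0.23, adjusted p = 0.0161) by totals (edgeR), while the exact rank-sum test on RPKM gave p = 0.0770. Against control liver it was -1.39 (SE 0.19, adjusted p = 5.47e-06) by TMM and -0.31 (SE 0.20, adjusted p = 0.157) by totals (edgeR).

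*Tef*, *Nfil3*, and *Nr1d2* overlapped widely between tumor and liver on the RPKM scale. *Tef* was at 5.42 to 24.7 RPKM (median 9.78) in the tumors, with log2 fold changes of -1.77 (SE 0.49, adjusted p = 0.00265) against pre-metastatic and -1.20 (SE 0.37, adjusted p = 0.00761) against control liver by edgeR, and of -0.59 and -0.14, neither called, by totals. *Nfil3*, at 3.57 to 8.66 RPKM (median 5.65), had -1.55 (SE 0.30, adjusted p = 7.29e-05) and -0.73 (SE 0.23, adjusted p = 0.00957), and by totals -0.38 and, with the direction turned, 0.36 (edgeR). *Nr1d2*, at 6.66 to 21.2 RPKM (median 17.0), had -0.91 (SE 0.38, adjusted p = 0.0330) against pre-metastatic liver by TMM and 0.25 by totals, and leaving out any one of 7 libraries (livers M1, M2, and M10, tumors M4, M5, M7, and M8) ended the call, with adjusted p of 0.0569 to 0.0864 (edgeR). Against control liver, where *Nr1d2* was at 3.66, 3.43, 2.57, 5.28, and 14.04 RPKM, it had 0.23 (SE 0.39) by TMM and 1.29 (SE 0.42, adjusted p = 0.00900) by totals. Without C7, *Nr1d2* (0.81, adjusted p = 0.0401) and *Bhlhe40* (0.84, adjusted p = 0.0102) were called higher in the tumor than in control liver by TMM too (edgeR), and all 9 genes were then called, where 80.4% of 18601 genes were.

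*Usp2* was narrow in the tumors, at 1.07 to 2.08 RPKM (median 1.43), and broad in pre-metastatic liver, at 0.156 to 6.38 RPKM (median 0.466). On the RPKM scale the tumor was below the liver in 4 of 4 mice of the high set and above it in 5 of 5 mice of the low set. The log2 fold change over all mice was -1.89 (SE 0.65, adjusted p = 0.0120), but with the mouse as a block it was -0.64 (SE 0.73, adjusted p = 0.427), and 7 of the 9 genes were then called, against 82.7% of 19749 genes (edgeR). In the high set it was -2.81 (SE 0.17, adjusted p = 4.85e-07, n = 4 mice) and in the low set 1.11 (SE 0.32, adjusted p = 0.00732, n = 5 mice), by edgeR. The sets were drawn on liver clock genes, and *Usp2* followed one of them, *Ciart*, over the livers (Pearson 0.941). The direction within a set was thus partly fixed by the choice of mice, and these p are no separate support for it. The difference between the sets was not tested. Against control liver, at 1.69, 0.863, 1.38, 0.984, and 2.39 RPKM, it was -1.07 (SE 0.22, adjusted p = 0.000260) by TMM and 0.01 (SE 0.22) by totals.

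*Wee1* was at 8.46 to 14.6 RPKM (median 10.8) in the tumors, at 0.396 to 9.74 RPKM (median 1.03) in pre-metastatic liver, and at 0.279, 0.432, 1.03, 0.639, and 4.598 RPKM in control livers C1, C4, C5, C6, and C7. All tumors were above all control livers, with a log2 fold change of 1.92 (SE 0.51, adjusted p = 0.00252, edgeR), and higher under both scalings. Against pre-metastatic liver it was 0.34 (SE 0.54, adjusted p = 0.567) by TMM, 1.28 (SE 0.60, adjusted p = 0.0674) with the mouse as a block, and 1.52 (SE 0.55, adjusted p = 0.0142) by totals (edgeR). Only M2 had less *Wee1* RPKM in the tumor (9.48) than in the liver (9.74), and the tumor exceeded the liver most in the 5 mice of the low set, whose livers were at 0.396 to 1.03 RPKM. By TMM the fold change was 2.78 (SE 0.23, adjusted p = 5.05e-07) in those mice and -0.61 (SE 0.18, adjusted p = 0.0129) in the 4 of the high set (edgeR). In these 4 the direction depended on the scaling, since on the RPKM scale the tumor was above the liver in 3 of them (medians of 10.1 and 7.57 RPKM). Over the livers *Wee1* followed *Per3*, a gene of the index (Pearson 0.974). The contrast of the sets was thus partly fixed by the choice of mice, and the p within sets are no separate support for it.

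**Figure D3:**
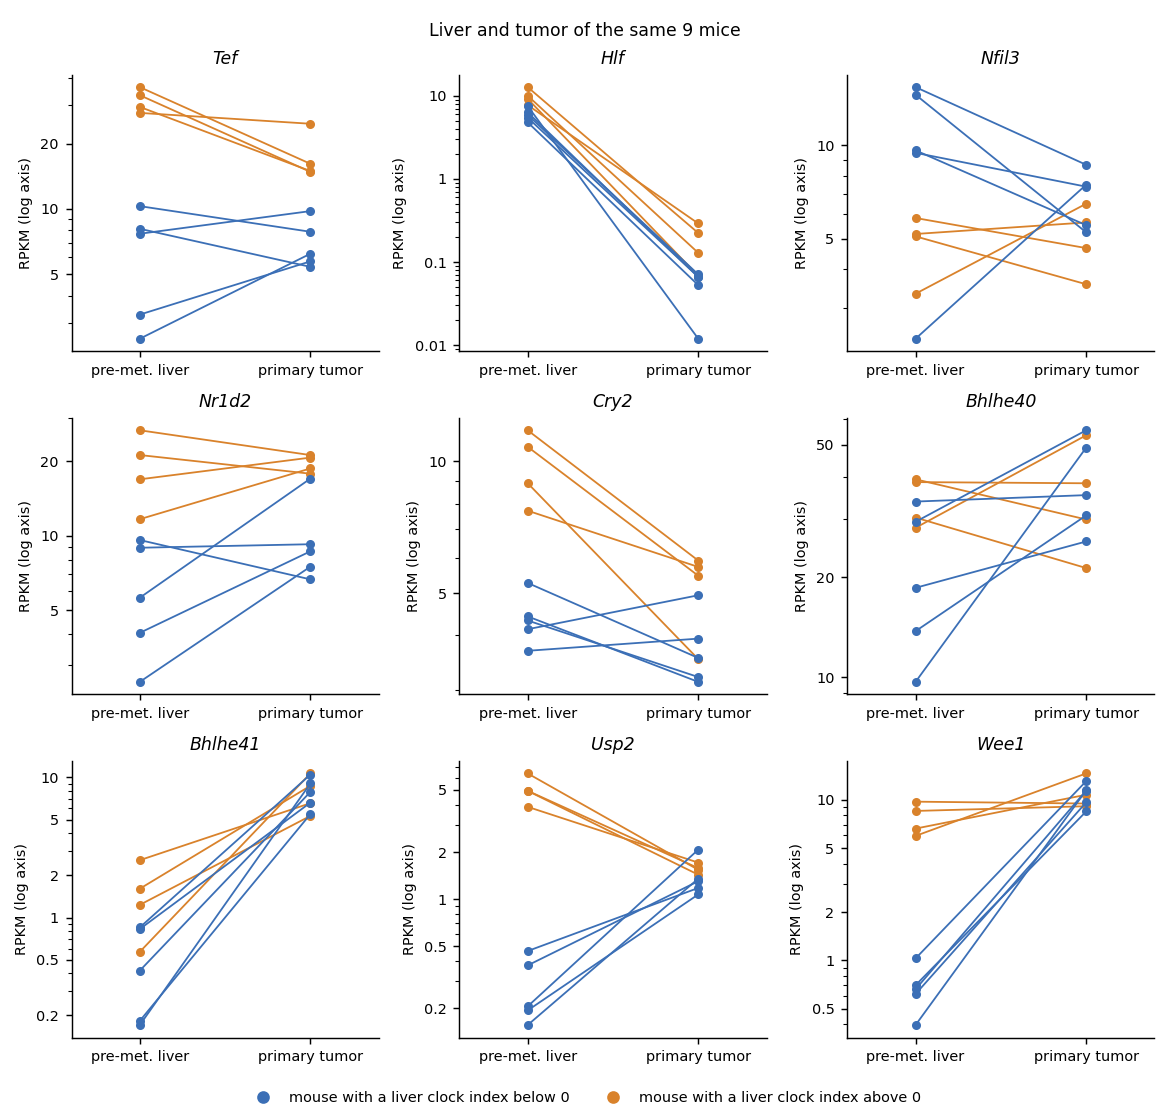
RPKM (log axis) of each of the 9 genes in both tissues of the same mouse, pre-metastatic liver at the left and primary tumor at the right, 1 line a mouse (n = 9), colored by the liver clock index (4 mice above 0, 5 below). The Usp2 lines fall in the 4 mice above 0 and climb in the 5 below, and the Hlf lines fall and the Bhlhe41 lines climb in all 9.

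**Figure D4:**
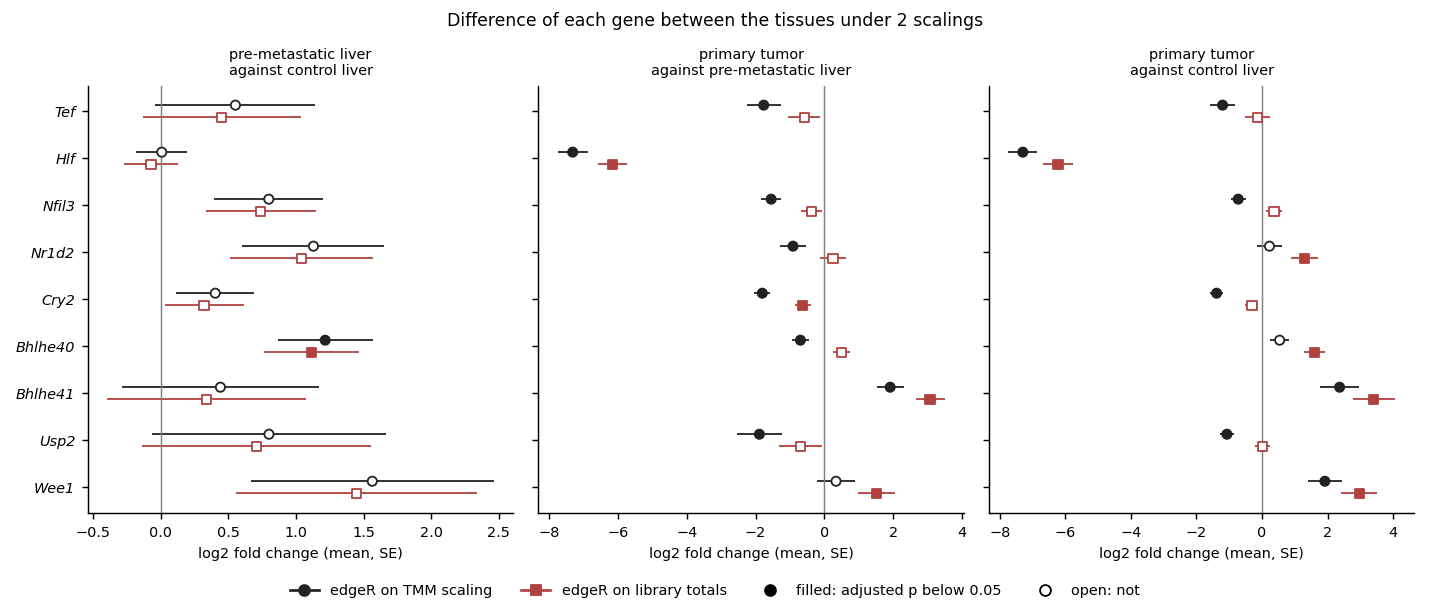
Log2 fold change with its SE (edgeR) of each of the 9 genes in the 3 comparisons (x axes of different range), with circles for TMM and squares for library totals, filled where the adjusted p is under 0.05. In the middle panel Hlf lies at -7.32 and -6.15 and Bhlhe41 at 1.91 and 3.07, while Bhlhe40 and Nr1d2 lie on opposite sides of 0 under the 2 scalings.

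Whether a mouse with more of a gene in its liver also had more of it in its tumor was tested with ranks centered within the high and the low set, over all 2880 re-pairings of mice within the sets. None of the 9 genes had an unadjusted exact p under 0.05, as 4.97% of 14497 genes did, and their coefficients ran from -0.385 (*Wee1*) to 0.067 (*Nr1d2*). The smallest p the design allows is 0.000347, and 0 genes of 14497 had an adjusted p under 0.05. Without the sets, *Nr1d2* (exact p = 0.0214) and *Tef* (exact p = 0.0311) passed 0.05 unadjusted, as 5.19% of 14497 genes did, and 0 genes passed adjusted. These are the 2 genes whose tumors separate by the liver index.

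The other genes of these pathways were taken from 5 lists drawn up with earlier results of these data known. Of all genes, 31.0% were called between pre-metastatic and control liver. In the tumor 83.3% were called against pre-metastatic liver by TMM and 88.9% by totals, and 82.3% against control liver by TMM and 87.9% by totals. List counts near these shares are not results about the lists. The median log2 fold change of 16 further clock genes between pre-metastatic and control liver was 0.12, against 0.01 over all genes. Against pre-metastatic liver, the tumors had 1 of the 16 higher by TMM, *Csnk1e* (2.17), a kinase of the period proteins, and 5 lower. By totals 8 were higher and 3 lower, so the balance depended on the scaling. The median was -0.41 by TMM and 0.78 by totals.

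Of 10 targets of the PAR bZIP factors, 0 were higher and 1 was lower in pre-metastatic than in control liver, *Cyp2b10*, a cytochrome of drug metabolism (log2 fold change -5.47, SE 0.67, adjusted p = 6.55e-05, edgeR). It was at 2.61 to 45.2 RPKM in control and 0.0534 to 1.46 RPKM in pre-metastatic liver, without overlap, and its reads may be shared with its close paralog *Cyp2b9*. With the clock index as a covariate, 4 of the 10 were lower and 0 higher, where 30.1% of all genes were called. Within the low set 5 were lower and 1, *Cyp2b9*, was higher (1.86), where 25.6% of all genes were called. In the tumors all 10 were lower than in pre-metastatic liver, with a median log2 fold change of -10.4, as the hepatocyte markers were, and *Cyp2a5* fell most, from 18.8 to 535 RPKM down to 0 to 0.716 RPKM, with reads that its paralog *Cyp2a4* may share.

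Of the G2 to M entry genes around *Wee1*, 8 of 11 tested were higher and 0 lower in pre-metastatic than in control liver, with a median log2 fold change of 2.04. The leukocyte markers summed to 35.03 to 67.5 RPKM in control and 82.6 to 336 RPKM in pre-metastatic liver, and their part in this was not tested. The largest rise was that of *Ccnb1*, the cyclin that activates CDK1 (4.32, SE 0.76, adjusted p = 0.000749, edgeR), from 0.00715 to 0.108 RPKM in control to 0.107 to 2.40 RPKM in pre-metastatic liver. *Wee1* itself was not among the called genes there. In the tumors 12 of 12 were higher than in pre-metastatic liver, with a median of 4.27, and *Cdc25c*, the phosphatase that undoes the action of WEE1, rose most (6.24), from 0.00872 to 0.229 RPKM up to 7.68 to 16.1 RPKM.

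Of 12 hypoxia-inducible genes, a group to which *Bhlhe40* is often added, 2 were higher (most, *Car9*, 4.32) and 4 lower (most, *Egln3*, -1.33) in pre-metastatic than in control liver, with a median of -0.18. *Car9* was at 0 to 9 counts in control liver. In the tumors 7 were higher than in pre-metastatic liver (most, *Ankrd37*, 4.13) and 3 lower (most, *Bnip3*, -1.15), with a median of 1.52, and by totals 10 were higher and 0 lower. Of 10 glucocorticoid-induced genes, a class of stress-responsive genes, 1 was higher in pre-metastatic liver, *Lcn2* (2.32), and 2 were lower, of which *Tat* (-1.74) moved most. In the tumors 0 were higher and 6 lower by TMM (most, *Pck1*, -11.1), and 4 higher and 5 lower by totals. Against control liver, the tumors had 4 higher and 6 lower of the 16 clock genes, 0 and 10 of the 10 targets, 12 and 0 of the 12 G2 to M entry genes, 7 and 4 of the 12 hypoxia-inducible genes, and 1 and 7 of the 10 glucocorticoid-induced genes, by TMM. By totals the clock genes had 9 and 3, the hypoxia-inducible genes 10 and 1, and the glucocorticoid-induced genes 3 and 5.

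For each gene, the genes most like it were taken by Pearson's correlation of log2(RPKM + 1), over 14 livers that fall into the sets of the index and over 9 tumors. In liver, clock genes outside the 9 were among the 3 most alike for 5 of them: *Dbp* (0.967) and *Per3* (0.934) for *Nr1d2*, *Per3* for *Wee1* (0.974) and *Cry2* (0.951), *Ciart* for *Usp2* (0.941), and *Per2* for *Tef* (0.931). The remaining neighbors were *Narf* for *Nr1d2*, *Npc1* and *4931408D14Rik* for *Cry2*, *ENSMUSG00000109904.1* and *Slc5a6* for *Wee1*, *Lpin2* (0.964) and *Marveld1* for *Usp2*, and *Plekhg3* (0.940) and *Pcsk4* for *Tef*. *Hlf* was most like *Fzd4* (0.940), *Gpd1l*, and *Cnn3*, *Nfil3* most like *Pomt1* (0.869), *Gm40863*, and *Elovl3*, *Bhlhe40* most like *Lrrc28* (0.864) and *Mms19*, and *Bhlhe41* most like its overlapping neighbor *ENSMUSG00000108126.1* (0.986), *Tnfrsf19*, and *Gm42161*.

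In the tumors, *Tef* was most like *Dbp* (0.985), another PAR bZIP factor, and then *Rps23*. *Bhlhe40* was most like *Numbl* (0.965) and *Adm* (0.957), a gene of the hypoxia list. The other pairs were *Use1* and *Osbpl10* for *Hlf* (0.924 and 0.922), *Fam168a* and *Slc12a4* for *Nfil3* (0.967 and 0.963), *Lrrc7* and *2010320M18Rik* for *Nr1d2* (0.975 and 0.971), *Cnppd1* and *LOC108168382* for *Cry2* (0.962 and 0.947), *ENSMUSG00000109536.1* and *ENSMUSG00000089853.1* for *Bhlhe41* (0.977 and 0.972), *Snd1* and *Snrpb* for *Usp2* (0.923 and 0.917), and *Tbx3* and *Ushbp1* for *Wee1* (0.876 and 0.868).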

How the data were processed

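Poly(A) RNA of 23 tissues was sequenced after library preparation with the NEBNext Ultra kit, and the submitters' processing notes name HISAT2, HTSeq 0.6.0, and mm10. The authors deposited a raw count per gene and library and its RPKM, scaled by library total. RPKM recomputed from the deposited counts differed by a relative error of 1.75e-06 or less. The 9 genes and the lists were chosen with earlier results of these data known.

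Counts were compared with edgeR 4.0.16 in R 4.3.3 (TMM, quasi-likelihood test, two-sided, Benjamini-Hochberg over all genes tested), on genes with 10 or more counts in 5 or more libraries of the groups compared. Alternatives were DESeq2 1.42.0, upper-quartile factors, library totals, no low-count filter, limma 3.58.1 on log2(RPKM + 1) and log2(RPKM + 0.1), the exact rank-sum test, the clock index as a covariate or as sets, the mouse as a block, and leaving out each library. Named are all 9 genes, the genes most like each (3 in liver, 2 in tumor), and the largest called rise and fall of each list (some are not reported here). Tumor and liver pair by animal. Over 14497 genes, deviations from group means correlated by a mean of 0.081 within mice and of -0.0103 between mice. Within mice the values ran from -0.0427 to 0.241, and 4 of 9 livers correlated best with the tumor of their own mouse. No library was a copy of another (chi-square per degree of freedom of at least 44.5). Errors are between mice. Tests were checked on simulated data. Python 3.11.15 and matplotlib 3.10.9 were also used.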

Additional observations from a re-analysis of the deposited data

Results flagged for a closer look

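Control liver C7, the control liver of the high set of the clock index, stood apart from the other 4 control livers in 3 of the 9 genes, by a gap on log2(RPKM + 1) that exceeds Dixon's limit for 5 samples. It had the lowest *Nfil3* (1.99 RPKM, against 5.04 to 6.17 in the others), the highest *Cry2* (8.52 RPKM, against 4.22 to 5.16), and the highest *Bhlhe41* (2.65 RPKM, against 0.109 to 0.508). In all, 27 groups (9 genes in 3 tissues) were tested for such a sample and 3 had one. Chance flags about 1 in 20 groups, but these 3 are all the same library. The genes also vary together over the 14 livers (*Cry2* with *Bhlhe41* 0.844, *Nfil3* with *Bhlhe41* -0.605, Pearson), so the count cannot be set against that rate. The C7 library also had the highest *Tef*, *Nr1d2*, *Bhlhe40*, *Usp2*, and *Wee1* of the control livers.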

How the results depend on the processing

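Of the log2 fold changes of the 9 genes under all alternatives, 562 kept their direction and their side of the threshold, 34 lost and 21 gained a call, and 40 changed direction. In pre-metastatic against control liver, 1 gene was called by edgeR (31.0% of all genes), 2 within the low set (25.6%), and 4 with the index as a covariate (30.1%). With a library left out, 1 to 4 were called (25.3% to 31.5% of all genes), and the 4 were without C7 (28.5%). By the exact rank-sum test 0 were called (27.4%), and 1, *Bhlhe40*, had an unadjusted p under 0.05, as 6719 of 16987 genes did. Against pre-metastatic liver, 8 genes were called in the tumor by TMM (83.3% of all genes), 4 by library totals (88.9%), 4 by limma with either pseudocount (88.7% and 89.3%), and 3 by rank-sum (88.3%). Of the same-gene relations, 2 passed without the sets (5.19% of 14497 genes) and 0 to 1 with a mouse left out (*Wee1* without M7, 4.81%). The cause was not tested, except that the totals and both RPKM tests share 1 scale.

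Directions turned as follows. In pre-metastatic against control liver, within the low set, *Tef* was -0.50, *Hlf* -0.35, *Cry2* -0.036, and *Usp2* -2.08, and with the index as a covariate *Tef* was -0.67, *Hlf* -0.25, *Cry2* -0.039, *Bhlhe41* -0.063, and *Usp2* -1.69. *Hlf* was -0.072 by totals, -0.10 by limma and rank-sum on log2(RPKM + 1), -0.12 with 0.1 added, and -0.091 to 0.086 with a library left out, and *Usp2* was -0.33 with 0.1 added. In tumor against pre-metastatic liver, by totals, log2(RPKM + 1), and log2(RPKM + 0.1) in turn, *Nr1d2* was 0.25, 0.40, and 0.45 and *Bhlhe40* 0.49, 0.53, and 0.55. *Usp2* was 0.40 with 0.1 added and 1.11 in mice of the low set, and *Wee1* -0.61 in those of the high set. In tumor against control liver, in the same order, *Nfil3* was 0.36, 0.33, and 0.41 and *Usp2* 0.0094, 0.031, and 0.072.

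With the mouse as a replicate block, *Usp2* (-0.64) lost its call and no other of the 9 genes changed its call. Among livers, 57.1% of calls were higher in pre-metastatic liver by TMM and 46.0% by totals. The lowest counts, 4 to 92 for *Hlf* in the tumors, limit how exactly its fold is known.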
